A study of Mus musculus with 6 samples.

Results

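The homeobox genes of the Hoxa, Hoxb, Hoxc and Hoxd clusters, together with *Evx1* and *Evx2* at the ends of Hoxa and Hoxd, were examined in the dorsal midbrain of *Ezh2* cko and control mouse embryos. Members were all probe sets whose only gene symbol in the platform's annotation is a numbered Hox gene of a cluster, *Evx1* or *Evx2*. This rule gave 50 probe sets for 35 genes, out of 45037 probe sets tested and 18193 genes with a probe set of their own. They comprised 16 probe sets for 9 Hoxa genes, 11 for 9 Hoxb genes, 11 for 7 Hoxc genes, 10 for 8 Hoxd genes and 1 for each Evx gene. The annotation lists 41 such genes, and the other 6 are not analysed here. The 3 *Ezh2* cko samples carried Wnt1-Cre and 2 floxed alleles of *Ezh2* (Ezh2[SET]lox/lox), so that the SET domain, which holds the methyltransferase activity, is removed where Cre acts. The 3 control samples are labelled WT, whereas in the study controls either carried the floxed alleles without Cre or carried Cre with 1 wild-type allele. All 6 were C57BL/6 embryos at E10.5, and 1 Affymetrix A430 array was run per sample. Each group came from 2 litters that are not assigned to samples, so p-values measure the spread between these samples, part of which may be shared within litters. Wnt1-Cre is also active in neural crest, and the study describes recombination as incomplete in the rostral midbrain at a later stage than that of the arrays.

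Hox genes encode transcription factors that give cells of the embryo their position along the body axis, and they lie in each cluster in the order in which they are used from front to back. Genes of the same number in different clusters are paralogues derived from 1 ancestral gene. In the neural tube Hox expression normally ends within the hindbrain, so the midbrain lies in front of the Hox territory. Outside that territory the clusters are textbook targets of Polycomb repressive complex 2, whose catalytic subunit Ezh2 methylates lysine 27 of histone H3. The comparison asks which Hox and Evx transcripts were measured at a higher or lower level in midbrain where *Ezh2* was deleted.

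Polycomb complexes are recruited in vertebrates largely to CpG-rich DNA, and the bases upstream of some gene starts are therefore shown. They are given for the Hox member with the largest difference (*Hoxc4*), for *Evx1* and for the neighbouring gene that passed the test (*Skap2*). *Hoxb1* is added as a Hox gene with a difference near 0, at signals among the lowest of the members. *Hoxb1* was chosen for display after its values were seen. The sequences are the 250 bases before the gene start in RefSeq on GRCm38.p6, read 5′ to 3′ on the gene's strand, with each CG in capitals. They lie at chr15:103034145-103034394 (plus strand) for *Hoxc4*, chr6:52313248-52313497 (plus) for *Evx1*, chr11:96365508-96365757 (plus) for *Hoxb1* and chr6:52012550-52012799 (minus) for *Skap2*.
Hoxc4: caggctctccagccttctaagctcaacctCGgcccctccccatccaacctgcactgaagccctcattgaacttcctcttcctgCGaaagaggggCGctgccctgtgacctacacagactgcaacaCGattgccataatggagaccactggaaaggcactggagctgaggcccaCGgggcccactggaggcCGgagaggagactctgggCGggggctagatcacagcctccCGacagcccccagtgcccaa
Evx1: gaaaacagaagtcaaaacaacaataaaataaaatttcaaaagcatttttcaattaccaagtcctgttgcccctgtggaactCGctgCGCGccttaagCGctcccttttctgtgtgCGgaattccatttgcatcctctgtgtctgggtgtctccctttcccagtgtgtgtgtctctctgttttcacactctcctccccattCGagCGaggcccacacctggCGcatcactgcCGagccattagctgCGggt
Hoxb1: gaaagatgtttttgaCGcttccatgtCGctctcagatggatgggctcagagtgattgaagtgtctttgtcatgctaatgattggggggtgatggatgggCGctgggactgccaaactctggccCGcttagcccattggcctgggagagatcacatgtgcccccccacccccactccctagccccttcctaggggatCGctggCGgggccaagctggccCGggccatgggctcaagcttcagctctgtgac
Skap2: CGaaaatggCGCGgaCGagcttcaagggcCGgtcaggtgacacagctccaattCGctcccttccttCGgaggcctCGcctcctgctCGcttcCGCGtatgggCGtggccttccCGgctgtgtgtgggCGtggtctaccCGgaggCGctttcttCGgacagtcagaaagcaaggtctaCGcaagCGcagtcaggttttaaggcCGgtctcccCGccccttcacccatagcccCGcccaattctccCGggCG
The window held 8 CG in *Hoxc4*, 10 in *Evx1*, 7 in *Hoxb1* and 24 in *Skap2*. Over the 32851 promoters of the RefSeq table the median was 6, with quartiles of 2 and 16. A promoter was listed for 21 of the 35 member genes (23 promoters, of which *Hoxa10* and *Hoxd11* had 2 each). Their median was 13 CG, and 19 of the 23 lay above the median of all promoters, between a lowest value of 2 (one of the *Hoxd11* promoters) and a highest of 35 (*Hoxa13*). *Hoxa13*, the most CG-rich, had a log2 difference of -0.02 between *Ezh2* cko and control. The motif TGATNNAT, a form of the composite site bound by Hox proteins with their partner Pbx, was searched on both strands. It was found in 4 of the 23 member promoters (17.4%, among them *Hoxb1*), against 7.7% of all promoters, and not within the windows shown for *Hoxc4*, *Evx1* and *Skap2*.

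No Hox or Evx probe set passed an adjusted p of 0.05 in limma, either higher or lower. Of all probe sets 0.189% did (0.184% higher in *Ezh2* cko), a share at which 50 probe sets would rarely hold a call. The methods set thresholds on the fold change (0.81 on the log2 scale, either way) and on the unadjusted p (0.01 or less). By these, 1 of the 50 was higher in *Ezh2* cko, *Hoxc4* (2%), against 0.24% of all probe sets, and no member was lower. At an unadjusted p under 0.05 in limma, 8 of the 50 (16%) were higher, against 4.49% of all probe sets, and 3 (6%) were lower, against 3.06%. In 12 members (24%) every *Ezh2* cko array lay above every control array, which held for 5.72% of all probe sets. In 3 members (6%) every *Ezh2* cko array lay below every control array, against 7.27% of all probe sets. Higher members were more frequent than over the whole array by both of these counts. The count at an unadjusted p under 0.05 stayed above the background when each array was left out in turn. Its share was lowest, 10%, without control replicate 1 or 3 (against 3.71% and 5.26% of all probe sets). It was highest, 26%, without *Ezh2* cko replicate 2 (against 3.76%). With the mean of the neuron markers in the model, 2 of the 50 (4%) were higher by this count, against 3.42% of all probe sets. Of 19 neuron markers, 18 were themselves higher in *Ezh2* cko, so this model does not separate them from the groups. The lower members were near the background by one count and above it by the other. The study's methods name no test for the arrays. An unpaired t-test, which they name for their statistics in general, gave 6 members (12%) an unadjusted p under 0.05, against 6.72% of all probe sets, and 4 of these (8%) were higher in *Ezh2* cko, against 3.26%.

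Most of the members differed little. The log2 difference, *Ezh2* cko minus control, ranged from -0.27 to 1.34 with a median of 0.04, against a median of -0.02 over all probe sets. It was above 0 in 32 members and below 0 in 18, and smaller than 0.3 either way in 41. For 45 of the 50 the whole 95% interval of the difference in limma lay within the fold threshold of the methods, 0.81 log2 units either way. The interval reached beyond that in the other 5, 1 probe set each of *Hoxc4*, *Hoxc8*, *Hoxb13*, *Hoxb3* and *Hoxd8*, always on the side of higher signal in *Ezh2* cko. Log2 signals of members ran between 3.05 and 7.09 over all arrays. Only 27 of the 50 remained without the dimmest 25% of probe sets on the array and 7 without the dimmest 50%, and the RMA signal, the authors' summary of the probes of a set, does not tell at which value a transcript is missing.

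**Figure D1:**
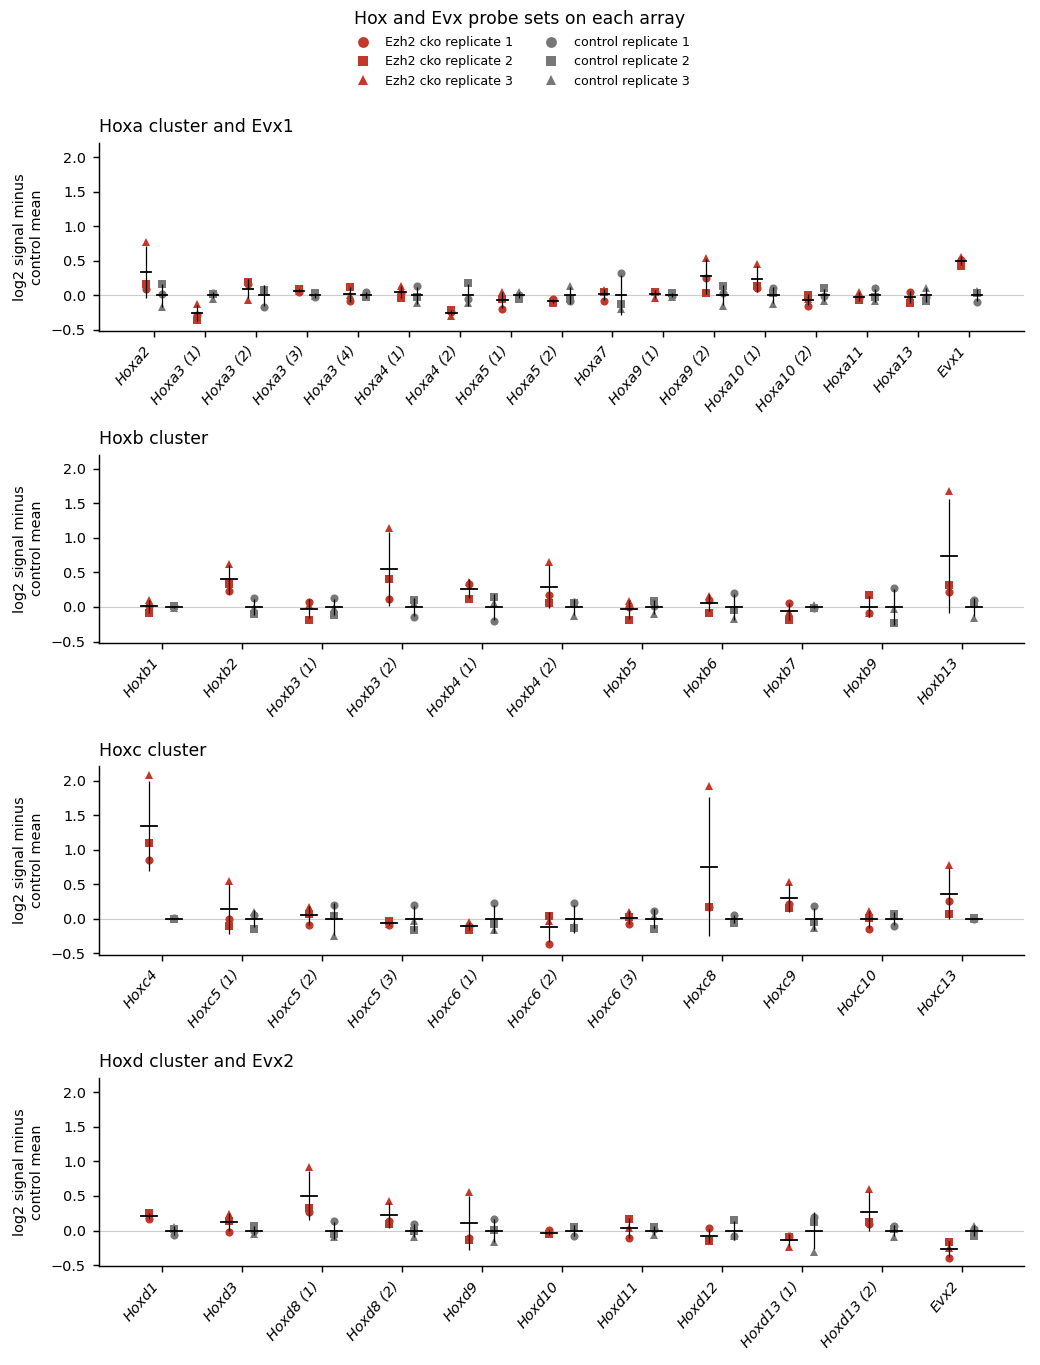
Log2 signal on each array (y axis), given relative to the mean of the controls for that probe set, for every Hox and Evx probe set by cluster and paralogue number (x axis, a number in brackets tells probe sets of 1 gene apart). *Ezh2* cko arrays (red) stand left of control arrays (grey), symbols mark replicates, and bars give the mean ± SD (3 samples each). Most members lie close to 0 in both groups, and the high points of *Hoxc4*, *Hoxc8*, *Hoxb13* and *Hoxb3* come from *Ezh2* cko replicate 3 (triangles).

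*Hoxc4* had the largest difference of all members. This gene belongs to paralogue group 4, whose expression begins at the back of the hindbrain and continues along the spinal cord. Its log2 signal was 5.53, 5.76 and 6.76 in the *Ezh2* cko samples, against 4.68, 4.66 and 4.68 in the controls. All 3 *Ezh2* cko arrays lay well above the controls, which were nearly identical to each other, and the *Ezh2* cko arrays spread widely (SD 0.65, against 0.01 in controls). The difference was 1.34 ± 0.27 on the log2 scale (SE), or 2.53-fold, with an adjusted p of 0.159 in limma. Without *Ezh2* cko replicate 3, the highest array, the difference was smaller, 0.97, and its adjusted p was 0.039, so that *Hoxc4* passed the test only in this setting. It stayed within the thresholds of the methods when any 1 array was left out, and lost them in the unpaired t-test, on the same difference, and with the mean of the neuron markers in the model, where the difference was 0.87 (adjusted p = 0.721). The platform has no second probe set with *Hoxc4* as its only symbol.

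The rest of the Hoxc cluster was divided between a few members with higher means and several close to 0. *Hoxc8*, a trunk gene that patterns the thorax, had signals of 3.93, 3.93 and 5.67 in *Ezh2* cko samples, against 3.81, 3.70 and 3.76 in controls. All *Ezh2* cko arrays lay above the controls, 2 of them narrowly and 1 by far, and the difference of 0.75 had an adjusted p of 0.743 in limma. *Hoxc13*, required for hair and nail formation, had 5.0, 4.82 and 5.52 in *Ezh2* cko samples, against 4.75, 4.76 and 4.75 in controls. Here too the groups did not overlap, but the third *Ezh2* cko array was well above the other two (difference 0.36, adjusted p = 0.671 in limma). *Hoxc6*, a thoracic gene, was at the other end of the cluster's range. Its 3 probe sets differed by -0.10, -0.11 and 0.02, and in each the groups overlapped. The median over the 11 Hoxc probe sets was 0.05, with 7 above 0 and 4 below, and it was 0.30 when each of the 7 genes was represented by its brightest probe set. The median over the 11 probe sets was -0.03 without *Ezh2* cko replicate 3 and 0.15 without control replicate 1.

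*Evx1* and *Evx2*, homologues of the Drosophila gene even-skipped, differed in opposite directions without passing the test. *Evx1* is expressed in the tail bud and specifies a class of commissural interneurons in the spinal cord. Its signal was 5.32, 5.24 and 5.37 in *Ezh2* cko samples, against 4.72, 4.85 and 4.87 in controls. The *Ezh2* cko arrays were tightly grouped and all above the controls, and the difference of 0.50 ± 0.08 (SE), or 1.41-fold, had an unadjusted p of 0.000208, lower than that of *Hoxc4*, and an adjusted p of 0.0726 in limma. The difference was between 0.45 and 0.53 when each array was left out in turn, with an adjusted p between 0.153 and 0.273 in limma. For *Evx1* the adjusted p was 0.432 in the unpaired t-test. With the mean of the neuron markers in the limma model it was 0.491, at a difference of 0.42. *Evx2*, which acts with the neighbouring Hoxd genes in the limb buds, had signals of 5.29, 5.52 and 5.43 in *Ezh2* cko samples, against 5.71, 5.60 and 5.75 in controls. All *Ezh2* cko arrays were lower, by the largest negative difference among the members (-0.27, adjusted p = 0.474).

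In the Hoxb cluster, the genes normally used in the hindbrain gave a mixed picture, with some means higher in *Ezh2* cko and others close to the controls. *Hoxb2*, which helps to pattern the hindbrain segments, had signals of 6.03, 6.14 and 6.43 in *Ezh2* cko samples, against 5.93, 5.70 and 5.78 in controls. The groups were separate but close, and the difference of 0.40 had an adjusted p of 0.408 in limma. *Hoxb3* gave different answers by probe set. One set had 3.93, 4.22 and 4.96 in *Ezh2* cko samples, against 3.67, 3.91 and 3.87 in controls (difference 0.55, adjusted p = 0.635), and the brighter one differed by -0.03 with overlapping groups. *Hoxb13*, a posterior gene of the tail and the prostate, had 4.54, 4.64 and 6.00 in *Ezh2* cko samples, against 4.42, 4.38 and 4.17 in controls. Its difference of 0.74 (adjusted p = 0.686) again came mainly from the third *Ezh2* cko array. The lowest differences of the cluster were those of *Hoxb7* (-0.06) and *Hoxb5* (-0.04). *Hoxb1*, a hindbrain gene at the front end of the cluster, was at 0.01 (95% interval -0.17 to 0.19). Its signals were 3.14, 3.051 and 3.235 in *Ezh2* cko samples, against 3.14, 3.145 and 3.114 in controls, and include the lowest of all members. At such low signals a difference near 0 does not show that the transcript was unchanged. The median over the 11 Hoxb probe sets was 0.06 (0.01 with 1 set per gene). It lay between -0.00 (without control replicate 3) and 0.16 (without control replicate 1) when single arrays were left out.

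One further probe set, annotated to a pair of Hoxb genes together and therefore no member, was singled out after its values were seen. Its signal was 5.32, 5.43 and 6.23 in *Ezh2* cko samples, against 4.27, 4.47 and 4.22 in controls, a difference of 1.34 with an adjusted p of 0.0712 in limma. Its size matched that of *Hoxc4*, with all *Ezh2* cko arrays above all controls and the third one again the highest. This set also passed the thresholds of the methods in limma (2.529-fold, unadjusted p = 0.000199), as did 0.24% of all probe sets on the higher side. The other 2 probe sets that share several Hox symbols differed by -0.05 and -0.07. Antisense transcripts of the clusters, measured by 6 probe sets, differed by between -0.22 (*Hoxb5os*) and 0.21 (*Evx1os*), and none passed the adjusted p.

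The Hoxd cluster had its largest difference in *Hoxd8*, a trunk gene. The brighter of its 2 probe sets had signals of 5.36, 5.42 and 6.00 in *Ezh2* cko samples, against 5.23, 5.03 and 5.0 in controls. The groups did not overlap, and the difference of 0.50 had an adjusted p of 0.489 in limma. The second probe set differed by 0.22, with 1 *Ezh2* cko array inside the range of the controls. *Hoxd13*, which shapes the digits, was measured by probe sets that went apart, one at 0.27 and the other at -0.14, and *Hoxd12* was at -0.08. *Hoxd1*, picked out after its values were seen, had a small difference with little spread: 3.59, 3.67 and 3.65 in *Ezh2* cko samples, against 3.35, 3.44 and 3.48 in controls (0.21, adjusted p = 0.534). The median over the 10 Hoxd probe sets was 0.11 (0.07 with 1 set per gene), and between 0.05 (without *Ezh2* cko replicate 3) and 0.20 (without *Ezh2* cko replicate 1) when single arrays were left out.

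The Hoxa cluster, with the most probe sets, had the narrowest range of differences among the 4 clusters. They ran from -0.25 to 0.34 with a median of 0.01 (-0.01 without *Ezh2* cko replicate 3, 0.02 without replicate 1), 9 above 0 and 7 below, and at an unadjusted p under 0.05 none of its 16 probe sets was higher and 2 were lower, against 4.49% and 3.06% of all probe sets. *Hoxa2*, the Hox gene expressed farthest forward in the hindbrain, had signals of 3.41, 3.48 and 4.10 in *Ezh2* cko samples, against 3.33, 3.48 and 3.15 in controls. Its groups overlapped, and only the third *Ezh2* cko array stood apart (difference 0.34, adjusted p = 0.734 in limma). The next largest differences were 0.27 in 1 of the *Hoxa9* probe sets and 0.23 in 1 of those for *Hoxa10*, genes of the posterior trunk. On the lower side, 1 of 4 *Hoxa3* probe sets had 4.04, 3.97 and 4.20 in *Ezh2* cko samples, against 4.36, 4.34 and 4.27 in controls (-0.25, adjusted p = 0.504). The other 3 sets for *Hoxa3*, a gene needed for thymus and parathyroid formation, lay between 0.01 and 0.10. One of the *Hoxa4* probe sets was also lower in every *Ezh2* cko array (-0.25, adjusted p = 0.579), while the brighter one was at 0.04. Of the 11 member genes with several probe sets, 7 had sets on both sides of 0 and 4 did not.

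**Figure D2:**
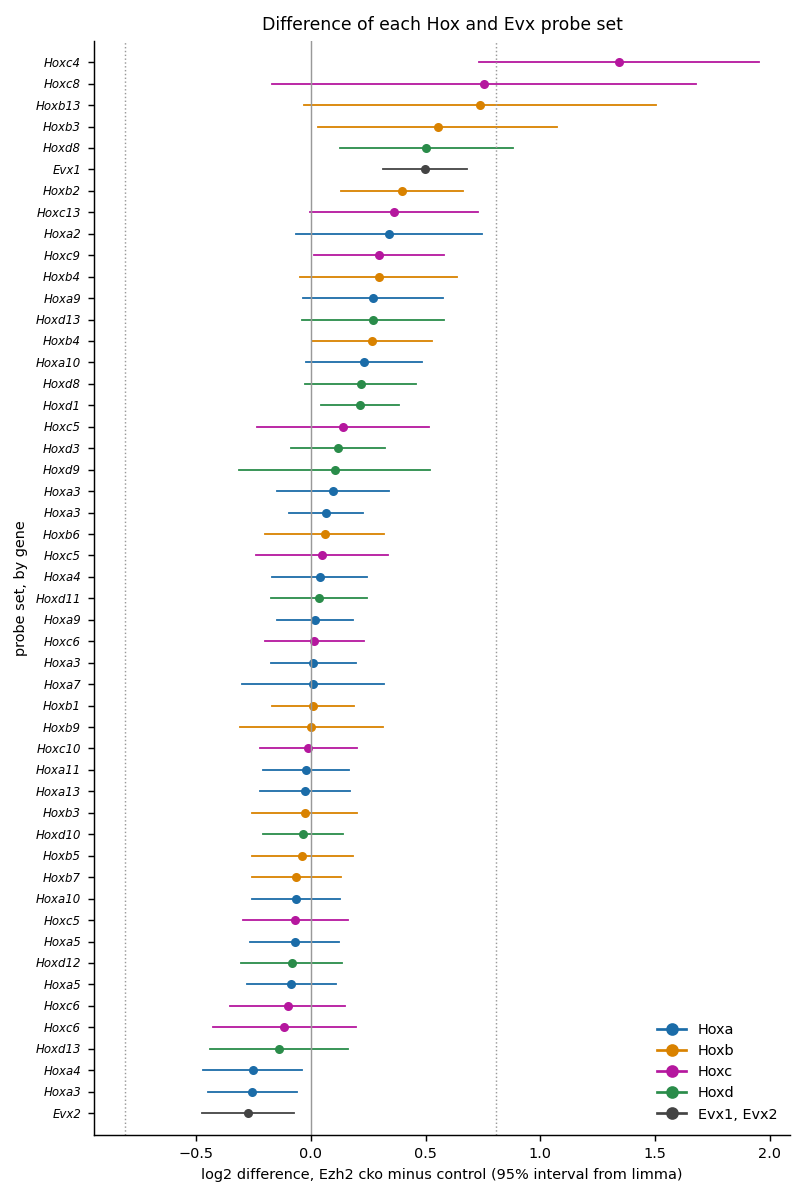
Log2 difference, *Ezh2* cko minus control (x axis), with its 95% interval from limma for each of the 50 probe sets (y axis, named by gene and coloured by cluster). Dotted lines mark the fold threshold of the methods, 0.81 log2 units either way. The intervals of 45 probe sets lie between the dotted lines, and *Hoxc4* stands at the top with 1.34.

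Grouping by paralogue number, with 1 probe set per gene, showed no steady course from front to back. The largest medians were those of group 8 (0.63 over *Hoxc8* and *Hoxd8*), group 2 (0.37 over *Hoxa2* and *Hoxb2*) and group 4 (0.30 over 3 genes that included *Hoxc4*). Between them lay groups with medians near 0, such as group 3 (0.01) and group 5, in which all 3 genes were slightly below 0 (median -0.07). Among the posterior groups, group 13 had a median of 0.17 over 4 genes and group 12, with *Hoxd12* alone, was at -0.08. These groups hold between 1 and 4 genes each and are given as a description.

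The higher means in *Ezh2* cko were unevenly distributed over the arrays. *Ezh2* cko replicate 3 held the highest of the 6 signals in 21 of the 50 members (42%), against 15.2% of all probe sets. The shares of the members were 2% for *Ezh2* cko replicate 1 and 12% for replicate 2, and 26%, 10% and 8% for controls 1, 2 and 3. In 7 members, 1 probe set each of *Hoxc8*, *Hoxb13*, *Hoxc4*, *Hoxb3*, *Hoxa2*, *Hoxd8* and *Hoxc13*, replicate 3 exceeded every other array by more than 0.5 log2 units, which it did for 0.346% of all probe sets. The distance to the next array was between 0.52 (*Hoxc13*) and 1.74 (*Hoxc8*), and none of the other 5 arrays was highest by that step in any member. Averaged over the 50 members, the signal relative to the control mean was 0.04, 0.06 and 0.30 in *Ezh2* cko replicates 1, 2 and 3, against 0.05, 0.00 and -0.05 in controls 1, 2 and 3. Over all probe sets these averages lay within 0.01 of 0 on every array.

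Without *Ezh2* cko replicate 3, 25 members were above 0 and 25 below, with a median of 0.00. Of all probe sets, 20151 were above 0 and 24886 below in this setting, with a median of -0.01. At an unadjusted p under 0.05 in limma, 6 members (12%) were still higher without this array, against 3.9% of all probe sets. The difference was then 0.17 for *Hoxc8*, 0.26 for *Hoxb13*, 0.26 for *Hoxb3*, 0.30 for *Hoxd8*, 0.12 for *Hoxa2* and 0.16 for *Hoxc13*. *Hoxc4* was at 0.97. These genes were picked because replicate 3 was high in them, so smaller differences without it follow from that choice. The SD of the *Ezh2* cko samples exceeded 0.5 in 4 members, *Hoxc8* (1.01), *Hoxb13*, *Hoxc4* and *Hoxb3*, and that of the controls in none (highest 0.28).

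**Figure D3:**
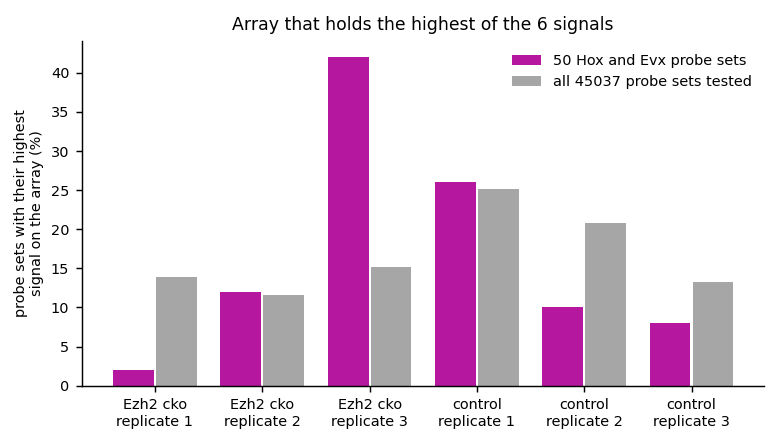
Share of probe sets (y axis, %) whose highest signal of the 6 lies on each array (x axis, *Ezh2* cko arrays left of control arrays), for the 50 Hox and Evx probe sets and for all 45037 probe sets tested. *Ezh2* cko replicate 3 holds the highest signal in 42% of the members and in 15.2% of all probe sets.

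Markers of some other cells were also highest on this array. Signals were taken relative to the control mean of each marker, and the median over the markers of a list is given. For 19 neuron markers, such as *Tubb3* and *Stmn2*, it was 0.13, 0.35 and 0.63 in *Ezh2* cko replicates 1, 2 and 3. In controls 1, 2 and 3 it was -0.29, 0.14 and 0.15. For 8 markers of neural crest and ganglia, tissues outside the midbrain that Wnt1-Cre also reaches and that in part express Hox genes, it was 0.12, 0.25 and 0.41 in *Ezh2* cko samples, against -0.11, -0.01 and 0.10 in controls. For 15 mesenchyme markers it was 0.11, 0.18 and 0.31 in *Ezh2* cko samples, against -0.22, 0.17 and 0.10 in controls. In these 3 lists replicate 3 was the highest of the 6 arrays. In the fourth list, 12 markers of blood and endothelium, it was not. There the median was 0.10, 0.00 and -0.04 in *Ezh2* cko replicates 1, 2 and 3, against -0.06, 0.02 and 0.05 in controls 1, 2 and 3. No gene of the 4 lists passed the adjusted p at its brightest probe set. The mean of the neuron markers was a covariate in an alternative model, but 18 of these 19 markers were higher in *Ezh2* cko. That model therefore does not separate them from the groups. The part of the 4 lists in the Hox signals was not tested in any other way. In pieces of tissue, more cells of a type and more RNA per cell cannot be told apart.

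The direct neighbours of the clusters were taken as the 3 nearest protein-coding genes with a probe set on each side. At the adjusted p in limma, 0.184% of all probe sets were higher. Among the 24 neighbours, each by its brightest probe set, 1 gene rose and none fell. This was *Skap2*, which encodes a Src kinase-associated adaptor protein and lies next to the 3′ end of the Hoxa cluster. Its brightest probe set had log2 signals of 8.81, 8.86 and 8.87 in *Ezh2* cko samples, against 7.89, 8.03 and 8.03 in controls, a difference of 0.86 with an adjusted p of 0.00674 in limma. A second set had 8.14, 8.25 and 8.49 in *Ezh2* cko samples, against 7.08, 7.21 and 7.24 in controls (1.11, adjusted p = 0.00799), and the third differed by 0.26 without passing (adjusted p = 0.504). The separation of the groups at *Skap2* was thus shared by all 3 *Ezh2* cko samples. *Hoxa2*, the nearest Hoxa gene measured, had overlapping groups, as described above. With the mean of the neuron markers in the model the differences of both *Skap2* sets were 0.78 (adjusted p = 0.0838) and 0.91 (adjusted p = 0.0626), and the unpaired t-test, which called no probe set on the array after adjustment, did not call them either (adjusted p = 0.262 and 0.391). The median over the 24 neighbours was -0.02. One of 5 probe sets of *Cbx5*, which encodes a heterochromatin protein and lies beyond the 3′ end of Hoxc, differed by 1.11 (adjusted p = 0.618), and the other 4 lay between -0.04 and 0.04.

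**Figure D4:**
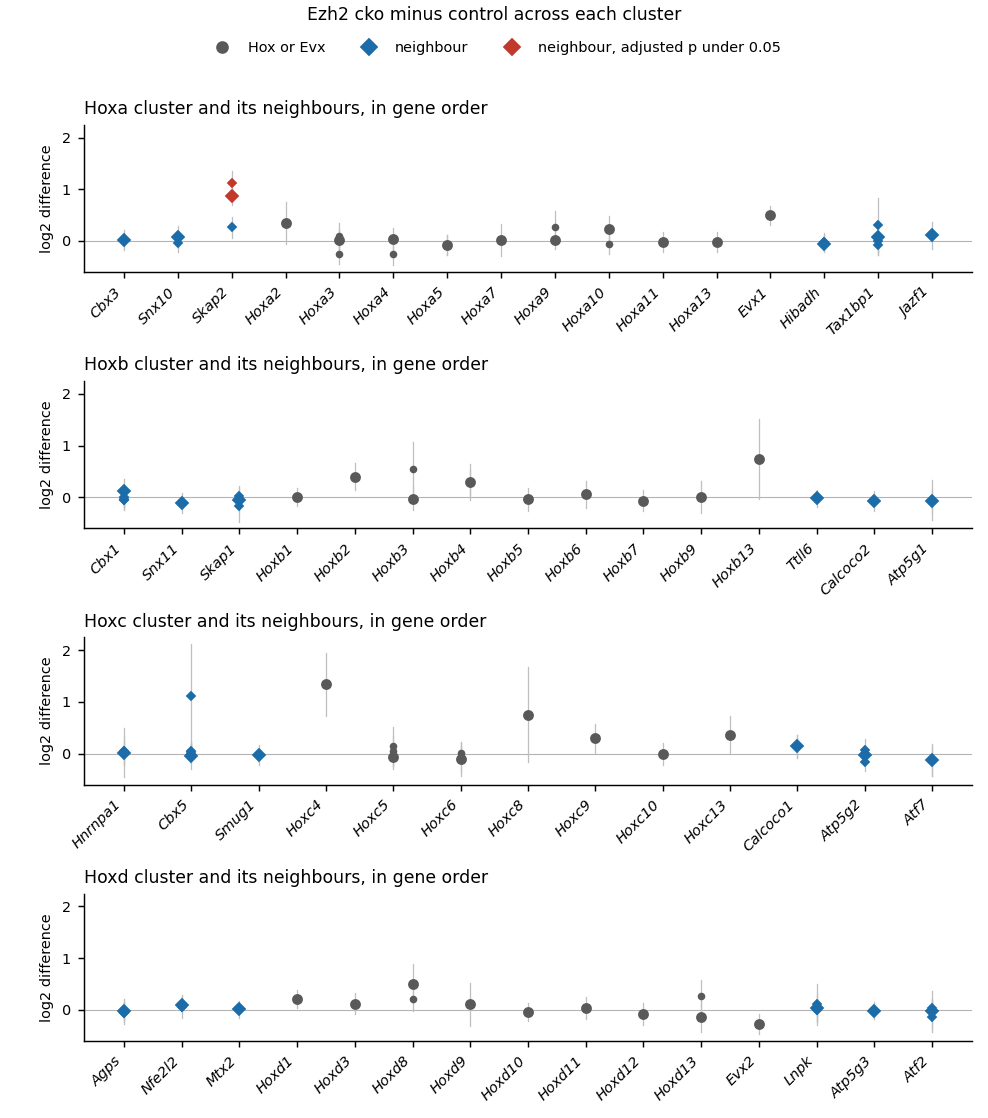
Log2 difference, *Ezh2* cko minus control (y axis), with 95% intervals from limma as lines, for the genes of each cluster and 3 neighbours on each side in their order along the chromosome (x axis, not to scale). Large symbols give the brightest probe set of a gene and small symbols its other sets. Only *Skap2* (red) passed the adjusted p.

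The partners of Hox proteins and the Cdx and ParaHox genes gave no call at the adjusted p. Of the partners of Hox proteins, the Meis, Pbx and Pknox genes, 8 were measured, with a median difference of 0.08. *Meis1* had 9.23, 9.15 and 9.28 in *Ezh2* cko samples, against 8.88, 8.86 and 8.82 in controls. The groups were clearly apart, yet the difference of 0.37 had an adjusted p of 0.162 in limma. The 6 Cdx and ParaHox genes, relatives of the Hox clusters of which the Cdx genes activate Hox genes in the trunk, had a median of 0.02.

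Markers of the hindbrain and of retinoic acid response, the tissue and the signal in which Hox genes are normally switched on, were mixed. Over 9 hindbrain markers the median was 0.06, with 6 above 0 and 3 below. The lowest was *Fgfr3* (-0.30, adjusted p = 0.782 in limma). *Atoh1*, a rhombic lip factor also found in other dorsal neural tube, was highest with 0.66 (adjusted p = 0.606), followed by *Gbx2*, a factor of the anterior hindbrain, with 0.42 (adjusted p = 0.715). Of 8 retinoic acid genes, 4 were above and 4 below 0. *Cyp26b1*, which degrades retinoic acid, differed by 0.91 (adjusted p = 0.572) and *Crabp2*, which binds it, by -0.35 (adjusted p = 0.418). In the check of the tissue, 12 midbrain markers had a median of 0.13, with 8 above 0 and 4 below. At an unadjusted p under 0.05 in limma 3 were higher and 1 lower, against 4.49% and 3.06% of all probe sets. After *Wnt1*, *Lmx1b* was highest (0.57, adjusted p = 0.214), and *Pax5* was lowest (-0.25, adjusted p = 0.642). The midbrain factor *Otx2* had signals of 11.33, 11.43 and 11.27 in *Ezh2* cko samples, against 11.16, 11.19 and 11.40 in controls. *Otx2* was thus bright and overlapping in both groups. *Wnt1*, also of the dorsal midbrain, was higher in *Ezh2* cko at the thresholds of the methods (0.90, adjusted p = 0.0712 in limma). All *Ezh2* cko samples carried Wnt1-Cre, and which controls did is not given, so its presence and the loss of *Ezh2* cannot be told apart here. The probe set of the targeted gene *Ezh2* had 11.79, 11.74 and 11.72 in *Ezh2* cko samples, against 11.69, 11.76 and 11.66 in controls, and where it lies relative to the deleted part was not examined, so it does not check the deletion.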

How the data were processed

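For each probe set and array the deposited value is a log2 signal that the authors made with RMA (version not given in the sources used here). RMA corrects background, gives all arrays 1 distribution and summarises the probes of a set. Array medians were 5.68 to 5.72. Arrays carry no depth, and their number limits the precision.

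The 64 control sets were left out. For the remaining 45037, *Ezh2* cko minus control was estimated in limma (version 3.58.1, R 4.3.3, lmFit and eBayes), with Benjamini-Hochberg adjustment over all of them. Symbols came from the platform's annotation, in which 34945 probe sets have 1 symbol, 932 several and 9160 none, and 34741 matched GRCm38.p6 by Entrez identifier. Where 1 value per gene is given, it is that of its brightest probe set on average. The fit was tested on simulated data.

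Named were members past a threshold, the 3 largest positive and 2 largest negative differences of each cluster, both Evx genes, and in other lists members past a threshold or else up to 2 of the largest. Members and lists were chosen with earlier results of these data known. Genes with no probe set of their own are not analysed here.

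Alternatives were an unpaired t-test (named by the methods for their statistics in general, not for the arrays), other variance priors and weights, filters, normalizations, a replicate block, the neuron marker mean as a covariate, 1 probe set per gene and leaving out each array.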

Additional observations from a re-analysis of the deposited data

How the results depend on the processing

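The count of Hox and Evx probe sets past the adjusted p was 0 in every setting except without *Ezh2* cko replicate 3, where it was 1 (*Hoxc4*), so leaving out single arrays gave 0 to 1. The count past the thresholds of the methods, 1 in limma, was 0 in the unpaired t-test, 0 with the neuron marker mean as a covariate, and 0 without the dimmest 50% of probe sets, where *Hoxc4* was no longer tested. The median over the members lay between 0.00 (0.0032, without *Ezh2* cko replicate 3) and 0.09 (0.0908, without control replicate 1) when arrays were left out. Small differences changed sign. With the neuron covariate *Hoxc6* was at 0.03 (0.0272) and *Hoxd13* at 0.05 (0.051). Over the arrays left out, *Hoxc6* ranged from -0.181 to 0.0147 and from -0.195 to 0.0086 in 2 probe sets, and *Hoxb5* from -0.098 to 0.0415. *Skap2* lost its calls in the t-test (adjusted p = 0.262 and 0.391) and with the neuron covariate, and 1 of its sets without control replicate 2 (adjusted p = 0.0536).

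Over all probe sets, limma called 83 higher and 2 lower at the adjusted p. The t-test called 0 either way (1467 and 1558 at an unadjusted p under 0.05), the neuron covariate 7 and 2, and leaving out 1 array 20 to 44 higher and 1 to 4 lower. The trended prior gave 106 and 5. At the thresholds of the methods limma gave 108 and 9, the t-test 59 and 2, and the neuron covariate 92 and 26. For arrays of the same replicate number, deviations from the group mean correlated at 0.065, -0.203 and 0.063. With only 3 arrays per group, centred on their own mean, these values cannot tell whether the numbers pair the samples. With the replicate block the members gave 0 past the adjusted p and 1 past the thresholds of the methods, and all probe sets 56 higher and 3 lower. Cyclic loess moved the median of all probe sets to -0.00 and that of the members to 0.07.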
